A study of Mus musculus with 10 samples.

Results

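Cdkn1a, Mdm2, Ccng1, Zmat3, Perp, Fas, Bbc3 and Bax are 8 genes that the transcription factor p53 is known to activate, and their RNA was followed here in mouse embryonic stem cells kept in 5 culture media. They were taken by symbol from the table of the series, which has 20494 lines and pairs symbols with their own values only in its upper part. All 8 stand there, and all 8 passed the filter on low values. RNA-seq had been done on an embryonic stem cell line with the strain label C57BL6X129S6F1, with 2 libraries in each condition and 10 in all. LCDM cells were in serum-free N2B27 medium with 1000 IU mLIF, the GSK3 inhibitor Chir99021 at 3 µM, and 2 additives that the labels write as Dim and Mih, at 2 µM each. A2iL cells had the same base, mLIF and Chir99021 with 1.5 µM CGP77675, an inhibitor of Src kinases. Both 2iL-F and 2iL had that base with 1 µM PD0325901, which inhibits MEK. SL cells were in KO-DMEM with 15% FBS and 1000 IU mLIF. Feeder cells, of a kind not named, are given for LCDM, A2iL, 2iL and SL, and their absence for 2iL-F. No label says whether the 2 libraries of a condition are separate cultures, so p-values cover only library-to-library spread, possibly a technical one.

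The protein p53 is held at a low level by MDM2, a ubiquitin ligase whose gene p53 itself switches on, which closes a feedback loop. When DNA is damaged or replication stalls, p53 is released and raises genes that stop the cell cycle, such as Cdkn1a, and genes that open the way to cell death, such as Bbc3, Bax and Fas. Mouse embryonic stem cells carry much p53 and divide fast, and several of its target genes are transcribed in them without added damage. Fibroblasts, the usual feeder cells, also express p53 targets, so RNA from feeder cells can enter these values.

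Values are TPM, a transcript abundance corrected for length and library total. It keeps no read numbers, and the depth is unknown. A change is the first-named condition minus the second on the log2(TPM + 1) scale, given ± SE as fitted by limma; on this scale weakly expressed genes appear to change less than they do. A gene passed at a Benjamini-Hochberg adjusted p below 0.05 over all 14578 tested lines. Collagen genes did not follow the feeder labels. Col1a1, a chain of type I collagen and a marker of fibroblasts, had 108 and 105 TPM in LCDM, 407 and 381 in A2iL, 1058 and 974 in 2iL-F, 0.200 and 0.264 in 2iL, and 366 and 393 in SL. Thus the libraries labelled as free of feeders had the highest Col1a1 and those labelled 2iL, with feeders, nearly none. Lox, Dcn and Postn, further defining fibroblast genes, were each listed at 0 in the pair of 2iL libraries, and 20 of the 27 fibroblast markers that could be read had less than 1 TPM in each of them. The summed TPM of these markers was 1005 to 1016 in LCDM, 2996 to 3067 in A2iL, 4747 to 4951 in 2iL-F, 846 to 891 in 2iL and 3045 to 3224 in SL. Fn1 and Sparc made up most of the sum in 2iL, at 403 ± 24.0 and 441 ± 7.45 TPM (SD, n = 2). Conditions are named throughout by label. In bulk RNA, fewer cells of a type and less RNA per cell cannot be told apart.

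The starts of genes of the set carry letters that fit the binding consensus of p53, whose half-site of 10 bases reads the same on both strands. RefSeq windows of GRCm38.p6, each from 250 bases before to 50 bases after a transcript start, were in the table for 6 of the 8 genes. An exact half-site stood in a window of 4 of these 6 genes, namely Cdkn1a, Mdm2, Ccng1 and Bax, against 9.6% of all 27025 genes with a window. Among 35 other p53 target genes with a window, 10 held one. The windows of Bbc3 and Fas held no exact half-site, which says only that these letters are not in those windows. The stretches below show the matches of the 4 genes, 5′ to 3′ on the strand of the gene, with each half-site in capitals; none of the half-sites overlaps another.
Cdkn1a, chr17:29090876-29090967, plus strand: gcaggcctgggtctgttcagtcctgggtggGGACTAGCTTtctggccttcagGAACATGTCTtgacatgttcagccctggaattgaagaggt
Mdm2, chr10:117710905-117710974, minus strand: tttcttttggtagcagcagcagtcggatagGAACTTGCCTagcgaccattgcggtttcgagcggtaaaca
Ccng1, chr11:40755432-40755501, minus strand: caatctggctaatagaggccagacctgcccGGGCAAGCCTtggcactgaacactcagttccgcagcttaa
Bax, chr7:45467060-45467129, minus strand: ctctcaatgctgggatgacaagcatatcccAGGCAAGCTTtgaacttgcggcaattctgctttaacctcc
The exact half-sites in Cdkn1a are separated by 12 bases, and the first begins 73 bases before the upstream one of the listed starts of the gene. The 10 bases directly after the second fit the consensus in all but their first letter. Such inexact matches were not searched for, so they are not in capitals. The single half-sites begin 186 bases before the start in Mdm2, 185 in Ccng1 and 201 in Bax. Binding of p53 was not measured in these samples.

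All 8 genes differed among the 5 conditions by limma's F test, in a table where 90.1% of lines did, so this count says little of these genes. The ratio of the highest to the lowest condition mean differed widely among them. It was 139 for Fas and 14.5 for Perp, against 3.37 for Cdkn1a, 2.93 for Mdm2, 2.74 for Ccng1, 2.26 for Bbc3, 1.58 for Zmat3 and 1.24 for Bax. The ratio of Fas rests on 2iL libraries near 0, and it was 265 against 2iL replicate 3 alone and 93.9 against 2iL replicate 5 alone. The lowest condition was LCDM for Cdkn1a, Zmat3 and Bax, 2iL for Mdm2, Ccng1, Perp and Fas, and 2iL-F for Bbc3. The genes therefore did not move as 1 block across the media.

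**Figure D1:**
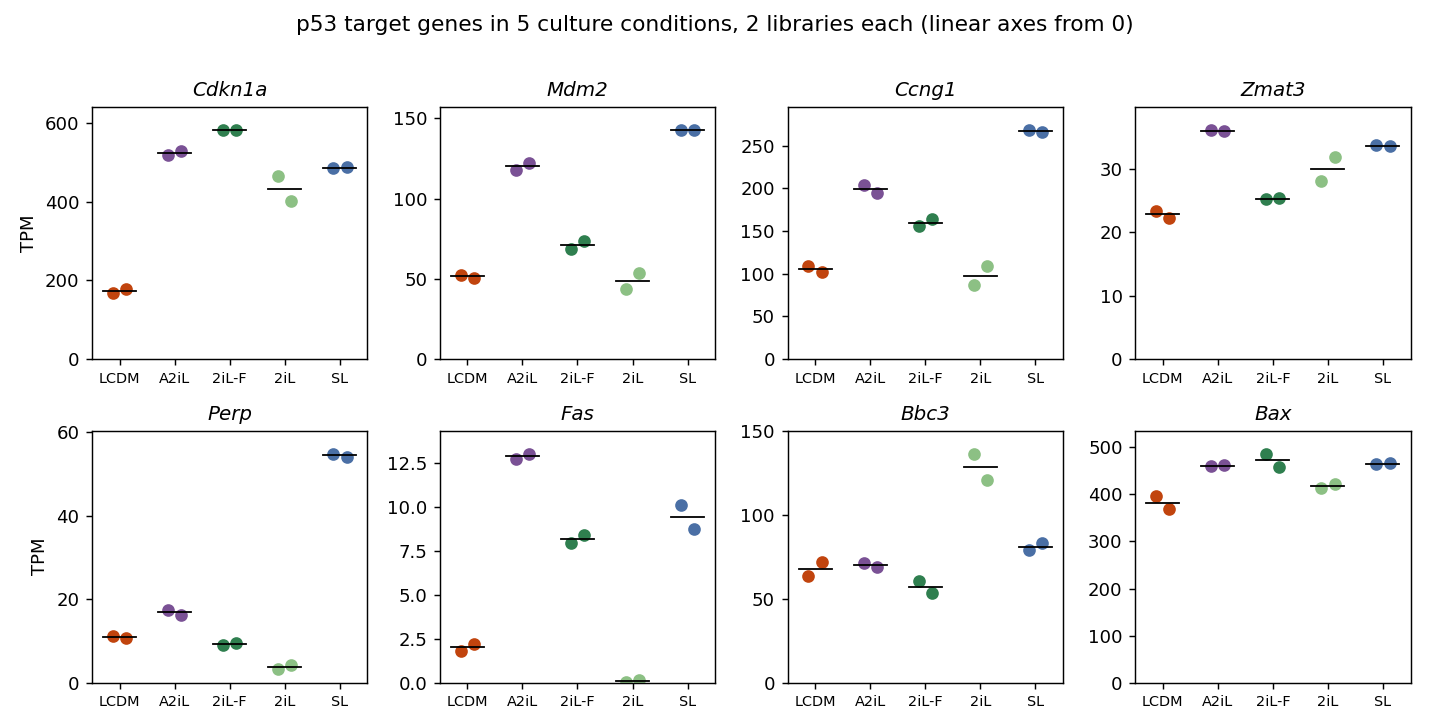
TPM (vertical axes, linear from 0) of the 8 p53 target genes in each of 10 libraries, by culture condition; points are libraries and bars are means of 2. Cdkn1a is low in LCDM, at 167 and 179 TPM, Mdm2 and Ccng1 have the same order of conditions, and Fas is near 0 in the libraries labelled 2iL.

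Cdkn1a encodes p21, the inhibitor of cyclin-dependent kinases through which p53 halts the cell cycle (chromosome 17, 29090976 to 29100727 of mm10). It had 167 and 179 TPM in LCDM, 518 and 529 in A2iL, 582 and 583 in 2iL-F, 465 and 401 in 2iL, and 484 and 489 in SL. Both LCDM libraries lay far below the other 8, which spread only from 401 to 583 TPM. Cdkn1a was lower in LCDM than in SL by a log2 change of -1.49 ± 0.07 (adjusted p = 2.84e-07), a level 2.81-fold lower by the means. It was also lower in LCDM than in A2iL (-1.59 ± 0.07, adjusted p = 4.10e-07), 2iL-F (-1.75 ± 0.07, adjusted p = 2.10e-07) and 2iL (-1.32 ± 0.07, adjusted p = 7.83e-07). Beside it, Col1a1 was 107 ± 2.32 TPM in LCDM, against 0.232 ± 0.0447 in 2iL, where Cdkn1a was 433 ± 44.8 TPM (SD, n = 2 each). Cdkn1a was 2.51-fold lower in LCDM than in the libraries labelled 2iL. These conditions also differed in medium, and what part fibroblast RNA has in the level of Cdkn1a was not tested. Other differences of Cdkn1a were smaller: it was higher in 2iL-F than in SL by 0.26 ± 0.07 (adjusted p = 0.00862) and lower in 2iL than in SL with a change of -0.17 ± 0.07 (adjusted p = 0.0433). The fall in 2iL missed the threshold under 12 of the other settings and left-out libraries, with adjusted p up to 0.255. A2iL and SL did not pass (0.11, 95% interval -0.05 to 0.26), but did so under 3 other settings or left-out libraries. The 3 genes with the most similar pattern over the 10 libraries were Tnfrsf1a, a receptor for tumour necrosis factor, Gyg, glycogenin, and Atp6ap1, an accessory subunit of the vacuolar proton pump. Their centred log2 values differed from those of Cdkn1a by a root mean square of 0.23, 0.24 and 0.25.

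Mdm2 and Ccng1 shared an order of conditions, which was not that of Cdkn1a. Mdm2, the ligase that marks p53 for degradation (chromosome 10, 117688875 to 117710758), had 52.6 and 50.7 TPM in LCDM, 118 and 122 in A2iL, 68.3 and 73.6 in 2iL-F, 43.7 and 53.6 in 2iL, and 143 and 143 in SL. Ccng1, cyclin G1, which recruits a phosphatase to MDM2 (chromosome 11, 40748552 to 40755311), had 109 and 102 TPM in LCDM, 204 and 194 in A2iL, 156 and 164 in 2iL-F, 86.2 and 109 in 2iL, and 269 and 266 in SL. Both genes stood in the order SL, A2iL, 2iL-F, LCDM and 2iL, and each step of the order passed except that between LCDM and 2iL, whose libraries overlapped. The step of Ccng1 between A2iL and 2iL-F, 0.31 ± 0.10 (adjusted p = 0.0263), was lost without any 1 of the 4 libraries of those conditions, with adjusted p up to 0.124. Between LCDM and 2iL the change was 0.09 (95% interval -0.10 to 0.29) for Mdm2 and 0.12 (-0.10 to 0.34) for Ccng1. Without 2iL replicate 3 it was -0.05 for Mdm2 and -0.05 for Ccng1, neither of which passed; without 2iL replicate 5 both passed, at 0.24 and 0.29. Against SL, Mdm2 fell in LCDM with a change of -1.45 ± 0.09 (adjusted p = 1.40e-06), in 2iL-F with a change of -0.999 ± 0.0856 (adjusted p = 1.30e-05) and in 2iL with a change of -1.54 ± 0.09 (adjusted p = 4.29e-07). Ccng1 fell with a change of -1.33 ± 0.10 (adjusted p = 4.39e-06), -0.74 ± 0.10 (adjusted p = 0.000173) and -1.45 ± 0.10 (adjusted p = 1.28e-06) in the same 3 media. In A2iL the falls were smaller, at -0.25 ± 0.09 for Mdm2 (adjusted p = 0.0373) and -0.42 ± 0.10 for Ccng1 (adjusted p = 0.00572), and that of Mdm2 missed the threshold under 9 other settings and left-out libraries, with adjusted p up to 0.152.

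Of all pairs within the set, Mdm2 and Ccng1 were the most alike, with a root mean square difference of 0.15 between their centred log2 values over 10 libraries. The closest gene to both among 5880 candidates was Pfn2, profilin 2, which binds actin, at 0.12 for Mdm2 and 0.09 for Ccng1. Sec63, of the protein channel of the endoplasmic reticulum, followed for Ccng1 at 0.10, and Adam9, a membrane protease, came after Ccng1 for Mdm2 at 0.15. The TPM ratio of Cdkn1a to Mdm2 was 3.17 and 3.53 in LCDM, 4.40 and 4.32 in A2iL, 8.51 and 7.91 in 2iL-F, 10.6 and 7.49 in 2iL, and 3.396 and 3.419 in SL. The LCDM libraries lay on either side of SL, and the 2iL libraries on either side of 2iL-F. The ratio was not tested.

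Zmat3, an RNA-binding zinc finger protein that acts in splicing downstream of p53 (chromosome 3, 32334792 to 32366014), changed little. It had 23.4 and 22.3 TPM in LCDM, 36.2 and 35.9 in A2iL, 25.2 and 25.4 in 2iL-F, 28.1 and 31.9 in 2iL, and 33.8 and 33.6 in SL. It was lowest in LCDM and 2iL-F, which did not pass between them (-0.14, 95% interval -0.29 to 0.00). Between those conditions Zmat3 passed under 4 other settings or left-out libraries. Against SL it fell in LCDM with a change of -0.54 ± 0.06 (adjusted p = 8.79e-05) and in 2iL-F with a change of -0.40 ± 0.06 (adjusted p = 0.000576). The fall in 2iL, -0.16 ± 0.06 (adjusted p = 0.0403), was lost under 12 other settings and left-out libraries, with adjusted p up to 0.214, and A2iL did not pass (0.10, 95% interval -0.05 to 0.24). The change in A2iL against SL passed under 2 other settings or left-out libraries. The pattern nearest to Zmat3 was that of Bcl10, an adaptor of NF-kappaB signalling, at a root mean square difference of 0.11.

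Perp, a membrane protein of the p53 death programme that also helps to build desmosomes (chromosome 10, 18845020 to 18857073), was higher in SL than in every other condition. It had 11.3 and 10.7 TPM in LCDM, 17.5 and 16.3 in A2iL, 9.02 and 9.62 in 2iL-F, 3.23 and 4.26 in 2iL, and 55.0 and 54.0 in SL. Both SL libraries lay above all 8 serum-free libraries, the highest of which had 17.5 TPM. Against SL, Perp fell with a change of -2.21 ± 0.10 in LCDM, -1.63 ± 0.10 in A2iL, -2.43 ± 0.10 in 2iL-F and -3.56 ± 0.10 in 2iL, with adjusted p of 2.59e-07, 3.26e-06, 1.42e-07 and 5.74e-09. Beside these values, Col1a1 was 394 ± 18.7 TPM in A2iL and 379 ± 19.3 TPM in SL (SD, n = 2 each), and it was 2.68-fold higher in 2iL-F than in SL. Perp was below SL in conditions with more and with less Col1a1 than SL. The 27 fibroblast markers, Col1a1 among them, were split: 11 fell and 8 rose in A2iL against SL, and 11 fell and 15 rose in 2iL-F. What part fibroblast RNA has in the level of Perp was not tested. Among the serum-free media Perp was lower in 2iL than in each of the other 3, and 2.49-fold higher in 2iL-F than in 2iL, in the same medium. LCDM and 2iL-F did not pass (0.22, 95% interval -0.01 to 0.44), but did so under 4 other settings or left-out libraries. Lrrfip1, an RNA-binding regulator, was closest in pattern at 0.15, followed by Pea15a, an adaptor of death receptor and ERK signalling, at 0.20. Of 4 desmosome genes tested, 2 passed in LCDM against SL, 1 in A2iL, 3 in 2iL-F and 2 in 2iL. These are 50%, 25%, 75% and 50% of the 4 genes, against 65.9%, 53.8%, 65.4% and 77.7% of all lines, and read as no result on desmosome genes. Evpl, envoplakin, fell in 2iL-F with a change of -1.30 and Jup, plakoglobin, rose there by 0.73.

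Fas, the death receptor at the cell surface that p53 induces (chromosome 19, 34290666 to 34327772), was near 0 in the libraries with almost no collagen RNA. It had 1.84 and 2.21 TPM in LCDM, 12.7 and 13.0 in A2iL, 7.94 and 8.39 in 2iL-F, 0.0487 and 0.137 in 2iL, and 10.1 and 8.76 in SL. The 2 libraries labelled 2iL were near 0 and those of LCDM low, and the other 6 lay between 7.94 and 13.0 TPM. Fas fell in LCDM with a change of -1.79 ± 0.10 (adjusted p = 7.83e-07) and in 2iL with a change of -3.25 ± 0.10 (adjusted p = 8.74e-09) against SL, rose in A2iL by 0.42 ± 0.10 (adjusted p = 0.00642), and did not pass in 2iL-F (-0.18, 95% interval -0.40 to 0.04). The rise in A2iL missed the threshold under 2 other settings or left-out libraries, with adjusted p up to 0.0995. In the shared medium of the libraries labelled 2iL-F and 2iL, Fas was higher in 2iL-F by 3.07 ± 0.10 (adjusted p = 3.49e-08). All 27 fibroblast markers were also higher there, with a median of 5.38 on the log2 scale, against a median of -0.02 over all lines tested. In LCDM against SL, 26 of the 27 markers fell and 0 rose, with a median of -1.81 on the log2(TPM + 1) scale. By the means, Fas was 4.67-fold lower in LCDM than in SL, and Col1a1 3.56-fold lower. At the top the order differed from that of Col1a1, since 2iL-F had the most Col1a1, 1016 ± 59.3 TPM, and A2iL the most Fas, 12.9 ± 0.206 TPM. The fibroblast markers were themselves split there: of the 27, 10 were higher in A2iL than in 2iL-F and 15 lower. Dcn had 107 ± 3.23 TPM in A2iL and 33.6 ± 0.968 TPM in 2iL-F. What part fibroblast RNA has in the level of Fas was not tested. The genes nearest in pattern were Clec2d, a C-type lectin, Antxr1, a collagen-binding membrane protein, and Mxra8, a matrix adhesion protein, at 0.17, 0.18 and 0.19.

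**Figure D2:**
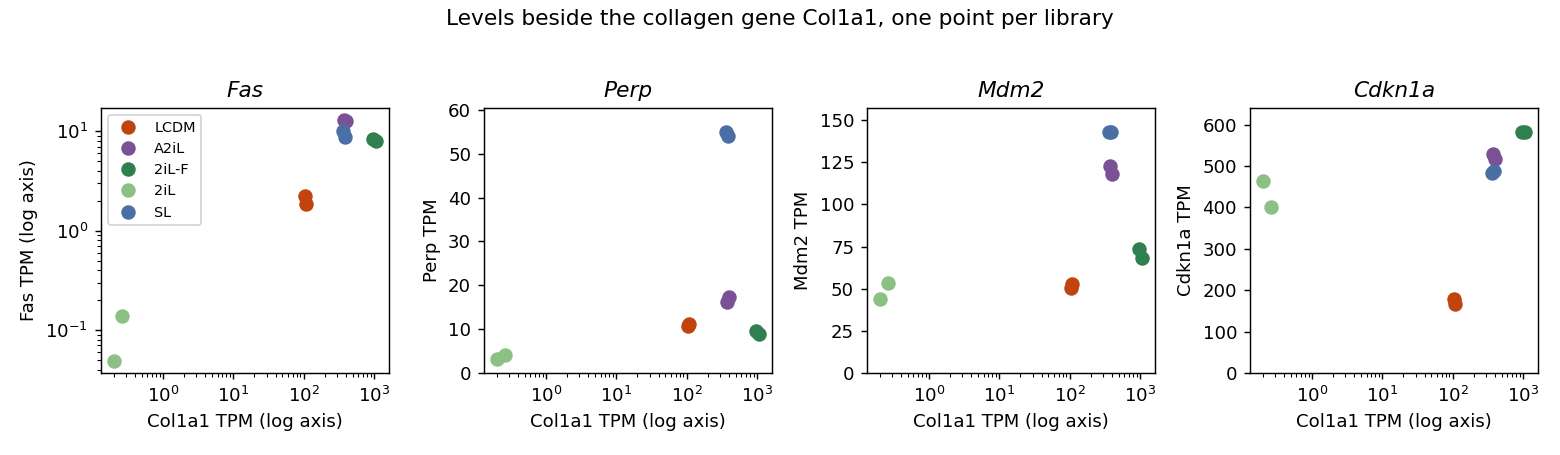
TPM of Fas (log axis), Perp, Mdm2 and Cdkn1a (linear axes from 0) against TPM of Col1a1 (log axis), with 1 point per library and colours for conditions. Fas is lowest where Col1a1 is lowest, at 0.0487 and 0.137 TPM in 2iL, whereas Cdkn1a has 465 and 401 TPM in those same libraries.

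Genes that act with FAS were read beside it. Of 10 tested genes of the death receptor pathway other than Fas, 7 fell and 0 rose in LCDM against SL, with a median of -0.74, against -0.00 over all lines. In A2iL 8 fell and 0 rose (median -0.32, against -0.07), in 2iL-F 5 fell and 1 rose (median -0.19, against -0.08), and in 2iL 5 fell and 3 rose (median -0.27, against -0.04). Of all lines 33.7% fell and 32.2% rose in LCDM, 31.9% and 21.9% in A2iL, 37.3% and 28.1% in 2iL-F, and 40.9% and 36.7% in 2iL. Casp8, the caspase that FAS activates, had 2.79 ± 0.148 TPM in LCDM, 6.76 ± 0.00148 in A2iL, 5.93 ± 0.270 in 2iL-F, 0.541 ± 0.0800 in 2iL and 12.01 ± 1.37 in SL (SD, n = 2 each). It fell with a change of -3.07 ± 0.09 in 2iL against SL (adjusted p = 9.06e-09) and with a change of -1.77 ± 0.09 in LCDM (adjusted p = 6.11e-07). Cflar, which encodes the inhibitor FLIP of that caspase, fell in 2iL to 0.407 ± 0.105 TPM, against 8.70 ± 0.372 TPM in SL. It was also lower in 2iL-F than in A2iL, at 1.95 ± 0.279 against 5.69 ± 0.290 TPM. Tradd, an adaptor of tumour necrosis factor receptors, had 19.0 ± 1.66 TPM in 2iL-F, against 12.02 ± 1.91 in SL, and rose by 0.63 ± 0.12 (adjusted p = 0.00185). Its level was highest in 2iL, at 24.0 ± 0.672 TPM, and was 12.1 ± 1.59 in A2iL and 12.04 ± 1.04 in LCDM.

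Bbc3 and Bax carry the mitochondrial arm of p53-driven death. Bbc3 encodes PUMA, which blocks the survival proteins of the BCL2 family (chromosome 7, 16308393 to 16318205). It had 63.8 and 72.0 TPM in LCDM, 71.2 and 69.1 in A2iL, 60.5 and 53.5 in 2iL-F, 136 and 121 in 2iL, and 78.8 and 83.3 in SL. The 2 libraries labelled 2iL were above the other 8, and Bbc3 was the only gene of the set that was higher in 2iL than in SL, by 0.66 ± 0.09 (adjusted p = 0.000108). It fell in 2iL-F with a change of -0.50 ± 0.09 (adjusted p = 0.000847) against SL, so the libraries of the same medium stood on opposite sides of SL. Between them Bbc3 was 2.26-fold lower in 2iL-F than in 2iL (-1.16 ± 0.09, adjusted p = 6.42e-06). It fell in LCDM against SL with a change of -0.25 ± 0.09 (adjusted p = 0.0275), a call lost under 4 other settings and left-out libraries with adjusted p up to 0.178, and did not pass in A2iL (-0.20, 95% interval -0.40 to -0.01, adjusted p = 0.0723). The change of Bbc3 in A2iL against SL passed under 5 other settings or left-out libraries. Stx7, a syntaxin of endosomes, Abhd8, a hydrolase-like protein, and Tpra1, a membrane protein, had the nearest patterns, at 0.13, 0.14 and 0.14.

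Bax, which forms pores in the outer mitochondrial membrane (chromosome 7, 45461697 to 45466898), was the steadiest gene of the set. It had 396 and 369 TPM in LCDM, 461 and 461 in A2iL, 486 and 458 in 2iL-F, 413 and 422 in 2iL, and 464 and 466 in SL. Only LCDM and 2iL lay below the rest. Bax fell with a change of -0.28 ± 0.05 in LCDM (adjusted p = 0.000814) and with a change of -0.15 ± 0.05 in 2iL (adjusted p = 0.0159) against SL, and the fall in 2iL was lost under 5 other settings and left-out libraries, with adjusted p up to 0.105. Its change in A2iL, -0.01 (95% interval -0.12 to 0.10), and in 2iL-F, 0.02 (-0.09 to 0.13), did not pass. The ratio of Bbc3 to Bax in TPM was 0.161 and 0.195 in LCDM, 0.155 and 0.150 in A2iL, 0.124 and 0.117 in 2iL-F, 0.330 and 0.286 in 2iL, and 0.170 and 0.179 in SL. In GENCODE vM21, exons of Bax share 192 bases with Gm45808 on the same strand, and those of Cdkn1a share 273 bases with AC167363.2 on the other, so these values may hold reads of those transcripts.

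Other genes of the mitochondrial pathway moved in both directions. Of 14 tested members of the BCL2 family and caspase cascade, 4 rose and 6 fell in LCDM against SL, with a median of -0.01, against -0.00 over all lines. In A2iL 2 rose and 5 fell (median -0.10, against -0.07), in 2iL-F 6 rose and 5 fell (0.04, against -0.08), and in 2iL 6 rose and 5 fell (-0.03, against -0.04). These calls are 71.4%, 50%, 78.6% and 78.6% of the list, near the 65.9%, 53.8%, 65.4% and 77.7% of all lines. Bcl2l11, which encodes the death protein BIM, had 3.67 ± 0.251 TPM in LCDM, 3.90 ± 0.331 in A2iL, 3.00 ± 0.0258 in 2iL-F, 3.73 ± 0.449 in 2iL and 11.4 ± 0.323 in SL, and fell against SL in all 4 media. Pmaip1, the p53 target NOXA, fell against SL in all 4 media, with changes of -0.94 in LCDM, -0.66 in A2iL, -1.62 in 2iL-F and -1.09 in 2iL. Casp9, the initiator caspase of this pathway, rose in all 4 media against SL, most in 2iL, at 20.5 ± 0.368 TPM against 5.25 ± 0.472 TPM in SL. The survival gene Bcl2l1 fell against SL in all 4 media, most in LCDM, to 23.6 ± 0.159 TPM, against 44.4 ± 1.43 TPM in SL.

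Set against SL condition by condition, the 8 genes passed in these numbers. In LCDM all 8 fell, in a table where 33.7% of lines fell, 32.2% rose and 65.9% passed in either direction, and their median change was -1.39, against -0.00 over all lines. Without single libraries 7 or 8 passed, and all 8 did when both sets of PD0325901 libraries were left out. In A2iL, 3 fell (Mdm2, Ccng1 and Perp) and Fas rose, in a table where 31.9% of lines fell and 21.9% rose; their median was -0.11, against -0.07. That count of 4 was near the background of 53.8%, and it was 2 without SL replicate 5. In 2iL-F, 5 fell and Cdkn1a rose, against 37.3% and 28.1% of lines and 65.4% in either direction, with a median of -0.45, against -0.08. In 2iL, 7 fell and Bbc3 rose, against 40.9% and 36.7% of lines and 77.7% in either direction, with a median of -0.81, against -0.04. That count of 8 became 5 without SL replicate 3, 5 without SL replicate 5, 5 with median-of-ratios scaling and 5 with only the 4 libraries compared in the fit. Of the 27 fibroblast markers, 26 fell in LCDM (median -1.81), 11 fell and 8 rose in A2iL (-0.05), 11 fell and 15 rose in 2iL-F (0.41), and all 27 fell in 2iL (-4.66) against SL. Their part in these counts was not tested. The 4 comparisons share the SL libraries.

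**Figure D3:**
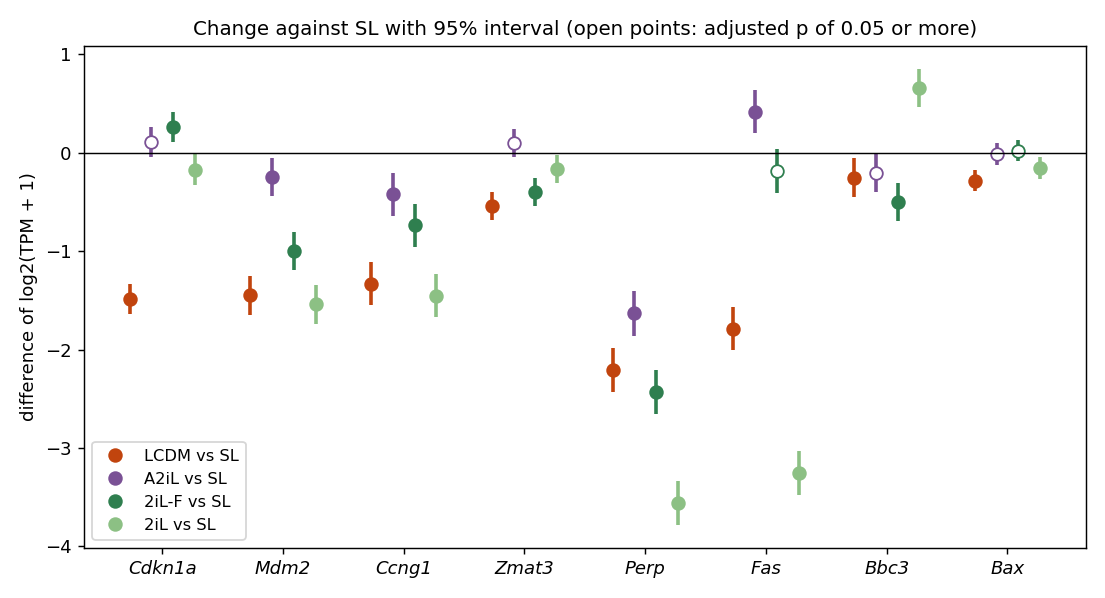
Differences of log2(TPM + 1) against SL (vertical axis) for the 8 genes in LCDM, A2iL, 2iL-F and 2iL, with 95% intervals from limma; filled points passed at an adjusted p below 0.05. All 8 points of LCDM lie below 0, and Bbc3 in 2iL, at 0.66, is the highest point.

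Between the serum-free media, LCDM against A2iL had calls in 1 direction. There 7 genes fell in LCDM, 0 rose and Bbc3 did not pass (-0.05, 95% interval -0.24 to 0.15), in a table where 22.9% of lines fell, 31.1% rose and 54% passed in all, with a median of -0.77, against 0.06. Col1a1 was 3.69-fold lower in LCDM than in A2iL, and all 27 fibroblast markers fell with a median of -1.97; their part in the split was not tested. LCDM against 2iL-F had 5 that fell and Bbc3 that rose, against 27.2% and 32.3% of lines and 59.5% in all; the call of Bbc3 was lost under 5 other settings and left-out libraries, with adjusted p up to 0.205. LCDM against 2iL had 4 that fell, Cdkn1a, Zmat3, Bbc3 and Bax, and Perp and Fas that rose, against 28% and 34.3% of lines and 62.3% in all. The fall of Bax there was lost under 11 other settings and left-out libraries, with adjusted p up to 0.273. Between A2iL and 2iL-F, whose fibroblast marker sums were 2996 to 3067 and 4747 to 4951 TPM, 6 genes were higher in A2iL and 0 lower, against 22.2% and 23% of lines and 45.3% in all, with Mdm2 higher by 0.75 ± 0.09 (adjusted p = 0.000154) and Perp by 0.79 ± 0.10 (adjusted p = 0.000252). Cdkn1a did not pass there (-0.15, 95% interval -0.31 to 0.00), but passed as lower in A2iL under 3 other settings or left-out libraries. Without single libraries 4 to 7 genes passed there, and besides the call of Ccng1 that of Bbc3 was lost without 3 of the libraries, with adjusted p up to 0.135. A2iL against 2iL had 7 higher and Bbc3 lower, against 33.2% and 36.2% of lines and 69.5% in all; the call of Bax was lost under 4 other settings and left-out libraries, with adjusted p up to 0.0930.

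The libraries labelled 2iL-F and 2iL shared a medium and differed in every gene of the set. Here 6 genes were higher in 2iL-F, while Bbc3 and Zmat3 were lower, in a table where 29.2% of lines were higher, 32.5% lower and 61.7% one or the other. Aside from Fas, the differences were 1.13 ± 0.10 for Perp (adjusted p = 1.78e-05), 0.71 ± 0.10 for Ccng1 (adjusted p = 0.000237), 0.54 ± 0.09 for Mdm2 (adjusted p = 0.000632), 0.43 ± 0.07 for Cdkn1a (adjusted p = 0.000594) and 0.18 ± 0.05 for Bax (adjusted p = 0.0114). Zmat3 was lower with a change of -0.23 ± 0.06 (adjusted p = 0.0111). The calls of Bax and Zmat3 were each lost under 2 other settings or left-out libraries, with adjusted p up to 0.0896 and 0.0624. Beside these stands the difference in Col1a1, which had 1016 ± 59.3 TPM in 2iL-F and 0.232 ± 0.0447 TPM in 2iL (SD, n = 2 each). With respect to these genes, feeder label, collagen RNA and any other difference between the 2 conditions cannot be told apart.

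Of a wider list of 44 other p53 target genes, 26 stand in the readable part of the table, and all 26 were tested. Of these, 13 fell and 7 rose in LCDM against SL, with a median of -0.24, against -0.00 over all lines. In A2iL 9 fell and 6 rose (median -0.07, against -0.07), in 2iL-F 12 fell and 6 rose (-0.04, against -0.08), and in 2iL 10 fell and 9 rose (0.00, against -0.04). These calls are 76.9%, 57.7%, 69.2% and 73.1% of the 26, near the 65.9%, 53.8%, 65.4% and 77.7% of all lines, and the difference from the 8 genes was not tested. Plk2, a polo-like kinase of the stress response, had 18.1 ± 0.216 TPM in LCDM, 58.7 ± 2.60 in A2iL, 30.5 ± 0.292 in 2iL-F, 14.5 ± 0.610 in 2iL and 87.9 ± 2.26 in SL. It fell against SL with a change of -2.22 ± 0.05 in LCDM (adjusted p = 1.09e-08) and with a change of -2.52 ± 0.05 in 2iL (adjusted p = 1.10e-09), and its condition means stood in the same order as those of Mdm2. Btg2, an antiproliferative gene, was lowest in LCDM, with 28.9 ± 0.670 TPM, against 91.6 ± 1.07 in A2iL, 64.4 ± 1.38 in 2iL-F, 50.6 ± 4.78 in 2iL and 57.6 ± 2.22 in SL. Its fall in LCDM against SL was -0.97 ± 0.06 (adjusted p = 2.95e-06). Fdxr, a mitochondrial electron carrier reductase, went the other way, at 19.1 ± 0.655 TPM in LCDM and 24.8 ± 0.345 in 2iL, against 7.85 ± 1.11 in SL. In 2iL the repair genes Xpc, which senses DNA damage, and Rrm2b, a ribonucleotide reductase subunit, rose by 1.18 ± 0.06 and 1.45 ± 0.13. Xpc also rose against SL by 0.55 ± 0.06 in LCDM and 0.24 ± 0.06 in A2iL, and did not pass in 2iL-F. Rrm2b also rose by 0.47 ± 0.13 in 2iL-F, and did not pass in LCDM or A2iL. Sesn2, a stress-induced brake on mTORC1, rose in A2iL by 0.76 ± 0.06 (adjusted p = 1.38e-05). It also rose against SL by 0.57 in LCDM, 0.58 in 2iL-F and 0.46 in 2iL.

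**Figure D4:**
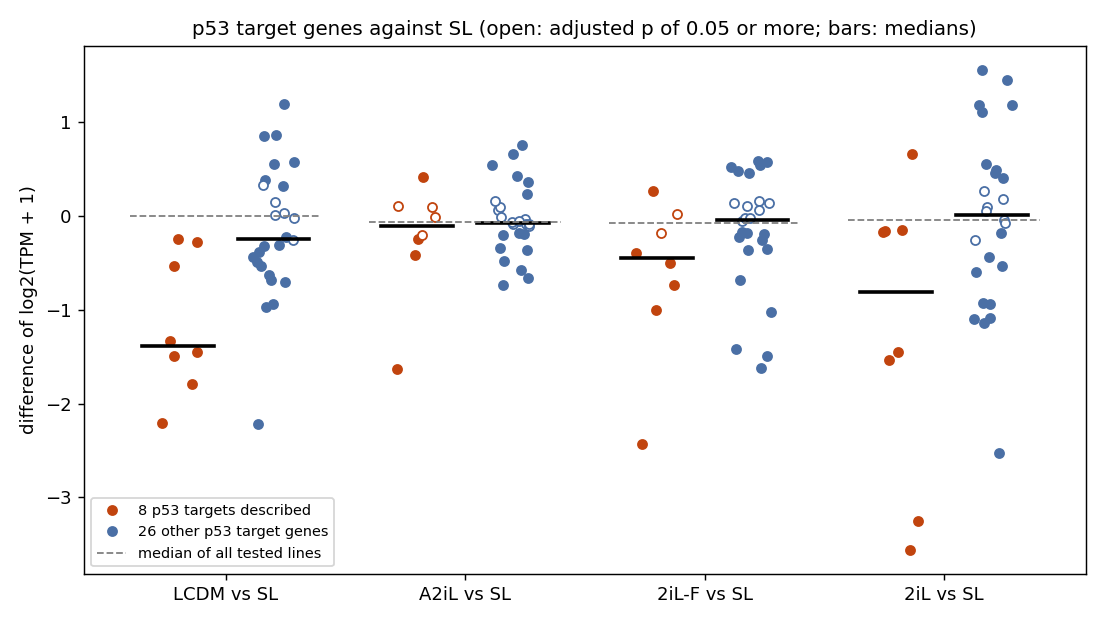
Differences of log2(TPM + 1) against SL (vertical axis) in 4 media for the 8 genes described (left cloud of each pair) and 26 other p53 target genes (right cloud); filled points passed, black bars are medians and the dashed line is the median of all tested lines. In LCDM the medians are -1.39 and -0.24.

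Genes that control p53 and genes of the cell cycle were read beside the set. Trp53 itself and Mdm4 were not analysed here. Of 14 tested regulators, 5 rose and 3 fell in LCDM against SL, 2 rose and 3 fell in A2iL, 5 rose and 3 fell in 2iL-F, and 4 rose and 5 fell in 2iL. These calls are 57.1%, 35.7%, 57.1% and 64.3% of the list, against 65.9%, 53.8%, 65.4% and 77.7% of all lines, with medians of 0.10, 0.02, 0.07 and 0.09, against -0.00, -0.07, -0.08 and -0.04. The checkpoint kinases Chek1 and Chek2, which pass damage signals to p53, rose in LCDM, by 0.59 ± 0.11 (adjusted p = 0.00154) and 0.64 ± 0.07 (adjusted p = 5.07e-05). Chek1 also rose in 2iL-F by 0.33 ± 0.11 (adjusted p = 0.0278) and in 2iL by 0.78 ± 0.11 (adjusted p = 0.000202), and did not pass in A2iL. Chek2 also rose in A2iL by 0.41 ± 0.07 (adjusted p = 0.00122) and in 2iL-F by 0.22 ± 0.07 (adjusted p = 0.0214), and did not pass in 2iL. Ppm1d, the phosphatase that ends the p53 response and is itself a p53 target, fell in 2iL to 18.2 ± 0.329 TPM, against 28.1 ± 0.257 TPM in SL. Of 18 tested cell cycle genes (cyclins, CDKs, CDK inhibitors, E2F factors, the Rb family and Pcna), 9 rose and 7 fell in LCDM against SL, in a table where 32.2% of lines rose and 33.7% fell. Their median was 0.21, against -0.00 over all lines. In A2iL 6 rose and 5 fell, in 2iL-F 7 rose and 5 fell, and in 2iL 7 rose and 6 fell. These calls are 88.9%, 61.1%, 66.7% and 72.2% of the list, against 65.9%, 53.8%, 65.4% and 77.7% of all lines. Of the cell cycle genes E2f1, which drives entry into S phase, rose in LCDM by 1.21 ± 0.06 (adjusted p = 6.11e-07). It had 85.7 ± 2.91 TPM in LCDM, 56.7 ± 0.158 in A2iL, 67.8 ± 4.70 in 2iL-F, 82.7 ± 4.40 in 2iL and 36.5 ± 1.35 in SL. Cdkn1b, the p27 relative of p21, had 20.9 ± 0.296 TPM in LCDM, 19.7 ± 0.222 in A2iL, 25.2 ± 2.22 in 2iL-F, 60.1 ± 4.05 in 2iL and 13.4 ± 0.466 in SL, so it was highest in 2iL. Ccnd2, cyclin D2, had 7.88 ± 0.706 TPM in LCDM, 29.1 ± 0.419 in A2iL, 19.8 ± 0.439 in 2iL-F, 0.0641 ± 0.0411 in 2iL and 82.2 ± 4.31 in SL. Like Fas it was near 0 in 2iL, where Col1a1 was 0.232 ± 0.0447 TPM (SD, n = 2).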

How the data were processed

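The submitters' processing notes name mm10, Bowtie2, RSEM, DESeq2 and R 3.4.2, without saying which step used which. The deposited values are TPM in 1 table of 10 columns, made by the authors, and sum to between 71.0% and 73.0% of the total that complete TPM reach; depth and use of strand are unknown. Whether symbols of the table belong to their values was checked with gene families. In its upper part 97.3% of 183 broadly expressed and 4.9% of 41 tissue-restricted genes had at least 5 TPM, against 51.9% of 106 and 33.8% of 302 lower down, so genes are named only from the upper part, where 7962 lines were tested. Lines with at least 1 TPM in at least 2 libraries entered 1 limma fit (3.58.1, R 4.3.3) of log2(TPM + 1), with a mean for each condition over all 10 libraries, trended eBayes and 5 residual degrees of freedom. The fit was tested on simulated data. Its p-values are two-sided and carry a Benjamini-Hochberg adjustment over 14578 lines, separately for 10 pairwise comparisons and the F test. From each gene list up to 4 passing genes with the largest change per comparison could be named, and defining markers always. Nearest patterns are 3 genes with a mean of at least 5 TPM, leaving out predicted genes, Rik clones, ribosomal proteins and pseudogenes. The settings varied were the pseudocount (0.1), the filter (none, or 5 TPM), the scaling (median of ratios, quantile), the libraries and lines in the fit, robust eBayes and a replicate block. The genes and lists were chosen with earlier results of these data known. Positions are from GENCODE vM21 (mm10).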

Additional observations from a re-analysis of the deposited data

How the results depend on the processing

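Of the values of a gene's change in a pairwise comparison, 712 of 752 under other settings and 734 of 800 without single libraries kept their direction and side of the threshold. In LCDM against SL those of Cdkn1a, Mdm2, Ccng1, Zmat3, Perp, Fas and Bax all did so. Directions turned only for changes that had not passed. Bax in A2iL against SL was 0.0708 with median-of-ratios scaling and 0.0874 with quantile normalisation, and in A2iL against 2iL-F 0.0291 with quantile normalisation. Without single libraries Bax ranged from -0.0210 to 0.0643 in 2iL-F against SL and from -0.0773 to 0.00801 in A2iL against 2iL-F. In LCDM against 2iL, Mdm2 ranged from -0.0513 to 0.235 and Ccng1 from -0.0464 to 0.290, and Bbc3 in LCDM against A2iL from -0.135 to 0.0374. The number of genes passing in 2iL against SL was 5 with median-of-ratios scaling, where the cause was not tested, and 5 with only the 4 libraries compared, a fit with fewer samples, in place of 8. Without single libraries it ranged from 5 to 7, and in A2iL against SL from 2 to 6. Whether the replicate numbers 3 and 5 pair the samples is not known. Same-numbered libraries had correlations of deviations between -0.131 and 0.075. These show no strong shared deviation, but cannot tell whether such libraries were prepared together. With the replicate block the genes passing against SL numbered 8 for LCDM, 4 for A2iL, 6 for 2iL-F and 6 for 2iL. With the pairing of LCDM and 2iL crossed, an alternative chosen after seeing the data, 6 genes passed between them, against 5 with the block as numbered and 6 without one. TPM keep no depth, so low values such as those of Fas in 2iL carry an unknown counting error.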
